A study of Gallus gallus with 30 samples.

Results

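The vascular and endothelial genes described here were ACE, EDNRA, EDNRB, KDR, FLT1, CDH5, TEK, VWF, ENG and ERG. They were taken by gene symbol from the annotation of the array. These 10 genes had 21 probe sets, of 38439 probe sets for 13009 genes in all. Each gene is given by its brightest probe set on average over the 30 arrays, and the other probe sets are noted. The unit throughout is the log2 signal after RMA normalization, so that a difference of 1 is a doubling.

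Breast muscle (Pectoralis major) was taken from male Arbor Acres (AA) broilers, a commercial line bred for meat, and from male White Leghorn layers, an egg-laying breed, at 1 d of age and again at 2 w, 4 w, 6 w and 8 w. Feed (a commercial layer feed), floor-pen housing, temperature and light did not differ between broilers and layers. For each line and age 1 RNA pool was made from 5 males and run on 3 Affymetrix Chicken Genome Arrays, giving 30 arrays of 10 pools. The SD of the 3 arrays of a pool is technical and holds no spread between birds. Tests were therefore made over the 5 ages with limma on the pool means, and none on the pools of a single age alone. A term that sets the line difference at 1 d against later ages takes its spread from those later ages. Array medians ran from 4.08 to 4.20, the number of pools limits the precision, and the 7 measured markers of skeletal muscle fibres had pool means between 11.35 and 13.79.

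The layer pool of 1 d stood apart in 3 genes of cartilage. In it MATN3, a cartilage matrix protein, was at 6.76, against 2.89 in the broiler pool of 1 d and 2.80 to 3.52 at later ages. COL9A3, a collagen chain of cartilage, was at 6.25 against 3.36, and ACAN, the cartilage proteoglycan aggrecan, at 5.55 against 3.62. Their line differences at 1 d differed from those at later ages by -4.06, -2.82 and -2.04 in limma. That term rests on 1 pool of each line at 1 d and takes its spread from the later ages. It measures no spread between pools of 1 d, and no p is given for these 3 genes. The list of cartilage and tendon markers was chosen with earlier results of these data known. COL2A1 and SOX9, which define cartilage, were at 6.21 and 4.15 in this pool and at 5.91 and 4.16 in the broiler pool. The summed signal of the 9 markers was 1684 in this pool, against 864 as the lowest and 895 as the median of the layer pools and 1006 to 1154 in broilers. This sum is of linear signal over cartilage and tendon markers alike, so it is no measure of cartilage alone. The values with age of the members called at 1 d or for the slope are therefore also given without this pool, an alternative chosen after seeing the data. The part of cartilage RNA in them was not tested. The terms for a line difference at 1 d cannot be fitted without this pool, and the line differences of ACE, EDNRA and EDNRB are also given without both pools of 1 d.

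Endothelial cells line the blood vessels and capillaries that feed a muscle. CDH5 (VE-cadherin) joins neighbouring endothelial cells, VWF is the clotting glycoprotein that they store and release, and ERG is a transcription factor that keeps up their identity. KDR and FLT1 are receptors for vascular endothelial growth factors, TEK is the receptor for angiopoietins, and ENG is a co-receptor for ligands of the TGF-beta and BMP family. ACE is the surface enzyme that makes angiotensin II, and EDNRA and EDNRB are receptors for endothelins. In mammals EDNRA acts mainly on vascular smooth muscle, where it constricts vessels, and EDNRB acts on endothelium, where it relaxes vessels and clears endothelin.

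The probe set of ACE aligned to chr27:2567618-2583866 on the plus strand (build WUSTL Gallus-gallus-2.1, from the platform annotation). That of EDNRA aligned to chr4:33032154-33062196 and that of EDNRB to chr1:157998941-158012636, both on the plus strand. These are spans of the alignments and not bounds of the genes. The qRT-PCR primers designed in the study for both endothelin receptors are shown because these receptors are the members whose line differences are set against each other below. They are written 5′ to 3′, and no capitals are used.
EDNRA forward: tggcgtgtactgccatcttct
EDNRA reverse: tcgacgctgcttaaggtgttc
EDNRB forward: aagagattccaaaactgctttaagtca
EDNRB reverse: gctttgaactttaaacacgactgtct
The EDNRA primers are 21 bases long with 11 G or C bases each, and the EDNRB primers are 27 and 26 bases long with 9 and 10.

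Averaged over the 5 ages, ACE was 2.64-fold lower and EDNRA 1.66-fold higher in broilers than in layers, and these were the only members to pass the test of the line difference (adjusted p under 0.05 from limma). The 2 called among 10 members stand beside 520 called among all probe sets, or 1.35%. The members were chosen with earlier results of these data known, so such counts are no test of them as a group. By direction, 1 member was higher, against 0.630% of all probe sets, and 1 was lower, against 0.723%. The mean was higher in broilers for 7 of the 10 members, beside 51.8% of all probe sets. The median difference was 0.14 beside 0.0039 over all probe sets. An unadjusted p under 0.05 was reached by 5 members, ACE, EDNRA, EDNRB, CDH5 and ENG, and by 14.3% of all probe sets. In bulk muscle a difference in the share of vascular cells and one in the RNA per cell cannot be told apart.

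**Figure D1:**
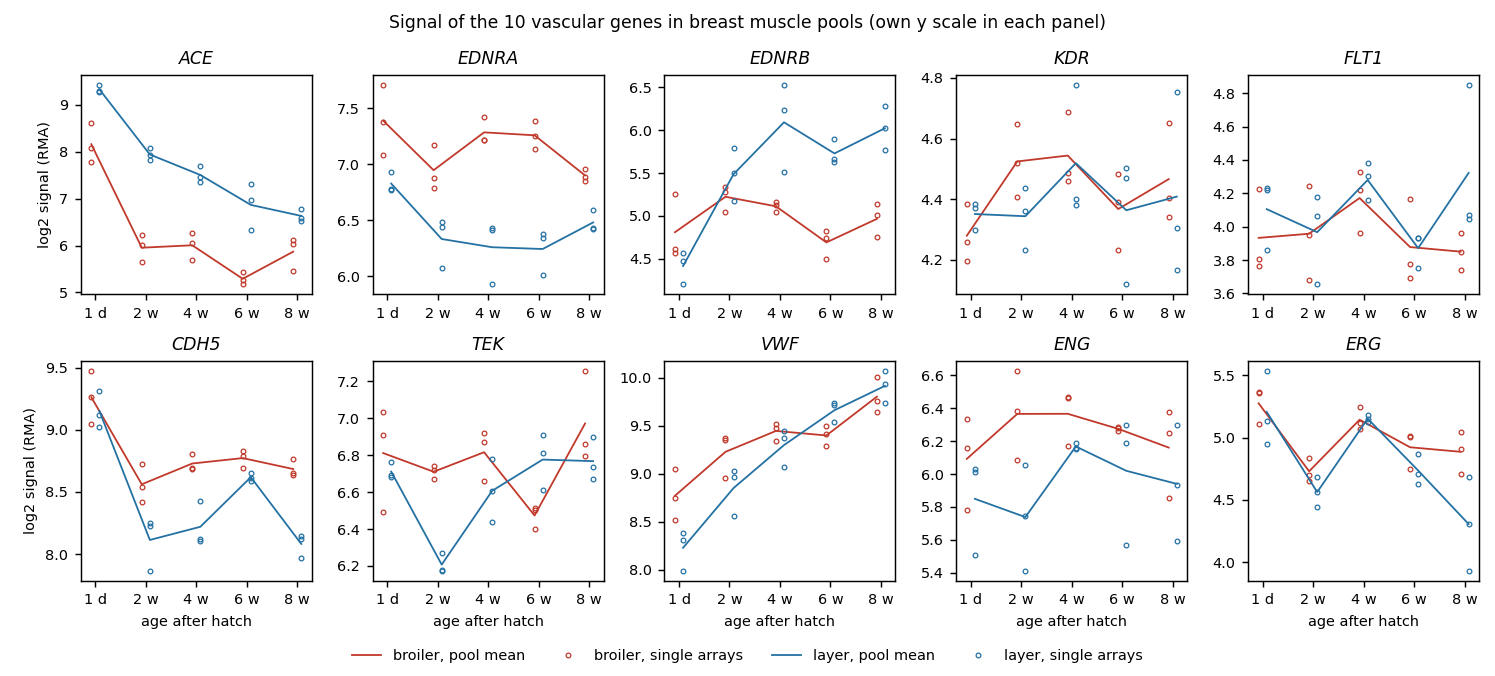
Log2 signal (y axis, own scale in each panel) of the 10 genes against age after hatch (x axis) in broilers (red) and layers (blue); open circles are the 3 arrays of a pool and lines join the pool means. The broiler arrays of ACE lie below and those of EDNRA above the layer arrays at every age, whereas the lines of EDNRB part only from 4 w on.

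ACE was highest at 1 d in both lines and lower in broilers than in layers at every age. The layer pools stood at 9.33 ± 0.09 at 1 d, 7.94 ± 0.12 at 2 w, 7.50 ± 0.17 at 4 w, 6.87 ± 0.50 at 6 w and 6.63 ± 0.14 at 8 w (log2 signal, pool mean with the SD of its 3 arrays). The broiler pools stood at 8.16 ± 0.43, 5.95 ± 0.29, 6.01 ± 0.29, 5.29 ± 0.13 and 5.87 ± 0.36 at the same ages. The arrays of the lines did not overlap at any age, and the broiler pool at 2 w was already below the layer pool at 8 w. The gap was 2.25-fold at 1 d, 3.96-fold at 2 w, 2.83-fold at 4 w, 2.98-fold at 6 w and 1.70-fold at 8 w. Over the ages the line difference was -1.40 ± 0.16 (SE, adjusted p = 0.00724 from limma, 5 pools per line). It kept its call without the pools of any 1 age, and without those of 1 d it was -1.46 (adjusted p = 0.00598).

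The level of ACE at 1 d was 4.72-fold above the mean of the later ages, a difference of 2.24 ± 0.19 (SE, adjusted p = 3.91e-05 from limma). At 1 d the pools averaged 8.75, and at the later ages 6.51. This was the largest difference with age among the 10 members, and without the layer pool of 1 d it was 2.38 (adjusted p = 0.000434). As a slope over the whole period ACE fell by 0.29 ± 0.06 per week (SE, adjusted p = 0.0441), and the slope lost its call without the layer pool of 1 d (-0.25, adjusted p = 0.213) and without both pools of 1 d (-0.14, adjusted p = 0.325), of 4 w (-0.30, adjusted p = 0.0718) or of 6 w (-0.27, adjusted p = 0.163). The slopes of the lines differed by 0.064 (95% interval -0.21 to 0.34, broilers minus layers), and the line difference at 1 d differed from that at later ages by 0.28 (95% interval -0.59 to 1.16). Neither of these passed the test.

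EDNRA was higher in broilers at every age, with no overlap of arrays. The broiler pools stood at 7.39 ± 0.31 at 1 d, 6.95 ± 0.20 at 2 w, 7.29 ± 0.12 at 4 w, 7.26 ± 0.13 at 6 w and 6.90 ± 0.06 at 8 w. The layer pools stood at 6.83 ± 0.09, 6.33 ± 0.23, 6.26 ± 0.29, 6.24 ± 0.20 and 6.48 ± 0.09. The lowest broiler pool, at 8 w, was above the highest layer pool, at 1 d. The gap was widest at 4 w, at 2.04-fold, and at 6 w, at 2.02-fold, and narrowest at 8 w, at 1.34-fold. The line difference was 0.73 ± 0.11 (SE, adjusted p = 0.0210 from limma). It missed the threshold without the pools of 2 w (0.76, adjusted p = 0.0759), 4 w (0.65, adjusted p = 0.0734) or 6 w (0.66, adjusted p = 0.0632), and without those of 1 d it was 0.77 (adjusted p = 0.0219).

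The pool means of EDNRB stood the other way round from 2 w on, with arrays of the lines apart only from 4 w on. Layer pools went from 4.42 ± 0.19 at 1 d to 5.49 ± 0.31 at 2 w, 6.09 ± 0.53 at 4 w, 5.73 ± 0.14 at 6 w and 6.02 ± 0.25 at 8 w. Broiler pools stayed between 4.69 ± 0.17, at 6 w, and 5.22 ± 0.15, at 2 w, with 4.81 ± 0.38 at 1 d, 5.11 ± 0.06 at 4 w and 4.97 ± 0.20 at 8 w. The arrays overlapped at 1 d and 2 w, and from 4 w on every layer array was above every broiler array. The layer pools thus spanned 3.20-fold and the broiler pools 1.45-fold.

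At single ages the line difference of EDNRB was 0.39 at 1 d, -0.26 at 2 w, -0.98 at 4 w, -1.04 at 6 w and -1.06 at 8 w. Over all ages it was -0.59 ± 0.20 (SE, adjusted p = 0.209 from limma) and did not pass, and without the pools of 1 d it was -0.83 (adjusted p = 0.0234). The term for a line difference at 1 d apart from that at later ages was 1.23 ± 0.31 (SE, unadjusted p = 0.00313 and adjusted p = 0.240 from limma), and the slopes of the lines differed by -0.19 ± 0.07 per week (SE, unadjusted p = 0.0292, adjusted p = 1.00). Neither passed over all probe sets. The layer pool of 1 d is the one with high MATN3, COL9A3 and ACAN. The term for 1 d rests on 1 pool of each line, this one included, and takes its spread from the later ages. It was called in 4 of 16 alternatives, the 3 fits over single arrays (lowest adjusted p = 0.0036) and the fit without the pools of 2 w (1.42, adjusted p = 0.0468), and its highest adjusted p was 0.741. Without the layer pool of 1 d the slopes differed by -0.074 (adjusted p = 0.886). A further probe set of EDNRB followed the brightest over the 10 pools (Pearson r 0.993), with a line difference of -0.70 (adjusted p = 0.172).

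**Figure D2:**
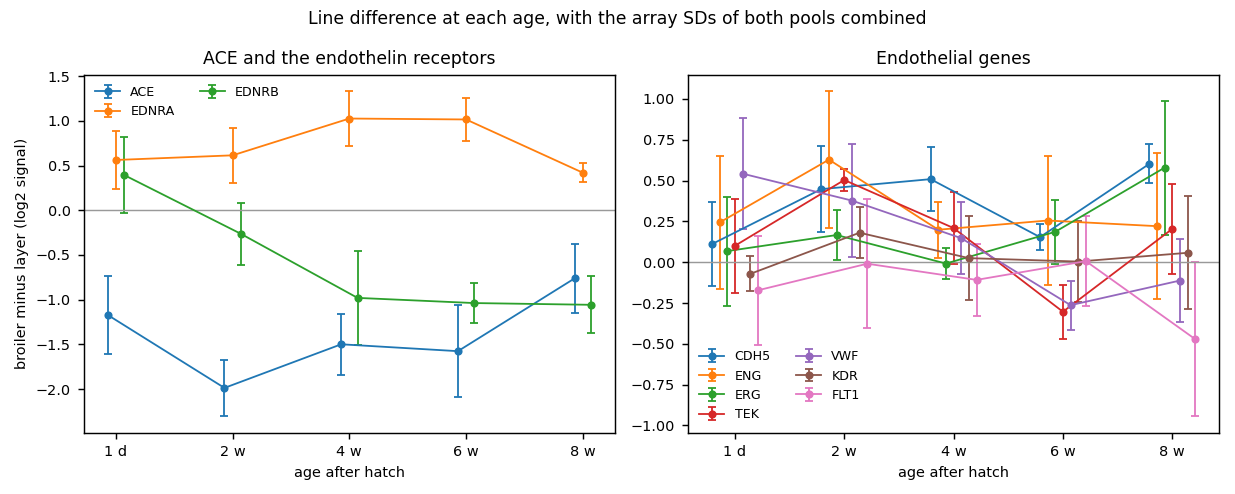
Difference between the broiler pool and the layer pool in log2 signal (y axis) at each age (x axis), for ACE and the endothelin receptors (left) and the 7 other genes (right); bars are the SDs of the 3 arrays of both pools combined as the root of their summed squares. ACE stays below 0, EDNRA above 0, and EDNRB moves from 0.39 at 1 d to -1.06 at 8 w.

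CDH5, ENG and ERG, an adhesion protein, a co-receptor and a transcription factor of endothelium, had higher means in broilers, and for none was the line difference called. CDH5 was at 9.26 ± 0.21, 8.56 ± 0.15, 8.73 ± 0.07, 8.77 ± 0.07 and 8.68 ± 0.07 in broilers from 1 d to 8 w. In layers it was at 9.15 ± 0.14, 8.11 ± 0.21, 8.22 ± 0.18, 8.62 ± 0.03 and 8.08 ± 0.10. Its arrays overlapped at 1 d only, and every later broiler array was above every layer array of its age. The line difference was 0.36 ± 0.10 (SE, adjusted p = 0.122 from limma, 95% interval 0.14 to 0.59), higher in broilers at 5 of 5 ages.

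ENG likewise had its higher mean in broilers at 5 of 5 ages, with a line difference of 0.31 ± 0.09 (SE, adjusted p = 0.149, 95% interval 0.10 to 0.51). Its broiler pools lay between 6.09 at 1 d and 6.37 at 4 w and its layer pools between 5.74 at 2 w and 6.17 at 4 w. The SD of the arrays reached 0.39 in the layer pool of 6 w. The arrays of the lines were apart at 2 w only, where the pool means differed by 0.63. ERG had its higher mean in broilers at 4 of 5 ages, with a line difference of 0.20 ± 0.09 (SE, adjusted p = 0.384). Its arrays were apart only at 8 w, where the broiler pool was at 4.89 ± 0.17 and the layer pool at 4.31 ± 0.37. The second probe set of ERG had a line difference of 0.23 ± 0.08 (SE, adjusted p = 0.222 from limma) and did not pass. It was higher in broilers at 5 of 5 ages, with arrays also apart only at 8 w, where the pool means differed by 0.53.

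TEK, VWF, KDR and FLT1 had line differences between -0.15 and 0.14 on the log2 scale, and none passed. For TEK, the angiopoietin receptor, the difference was 0.14 (95% interval -0.12 to 0.40), with arrays of broilers above those of layers at 2 w and below them at 6 w. The other probe set of TEK also had arrays apart at 2 w, where the pool means differed by 0.50. At 6 w its arrays overlapped, with a difference of 0.0071. Its line difference was 0.12 (adjusted p = 0.684 from limma). For VWF the line difference was 0.14 (95% interval -0.14 to 0.41). Its broiler arrays were above the layer arrays at 1 d and below them at 6 w, with pool means differing by 0.54 and -0.26. In the other probe sets of VWF the arrays overlapped at 6 w, at 0.0069 and -0.093. At 1 d these were higher in broilers as well, by 0.35 and 0.34, with arrays apart in the latter only. The slopes of VWF in the lines differed by -0.099 ± 0.042 per week (SE, unadjusted p = 0.0416, adjusted p = 1.00 from limma), which did not pass. For KDR the difference was 0.04 (95% interval -0.11 to 0.19) and for FLT1 -0.15 (95% interval -0.33 to 0.029). The arrays of these brightest probe sets overlapped at every age but 8 w for FLT1. There it differed by -0.47, with layer arrays at 4.07, 4.05 and 4.85. Its other probe sets were at -0.0058 at 8 w, with arrays overlapping, and at -0.21, with arrays apart. The former also had arrays apart at 4 w (-0.32) and 6 w (-0.34), and the latter at 2 w (0.45). Over the ages their line differences were -0.19 and 0.020 (adjusted p = 0.241 and 0.958 from limma), and neither passed. Dimmer KDR probe sets had arrays apart at 1 d (-0.71 and -0.75), 2 w (0.27) and 4 w (0.48).

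Counted by age, the arrays of the lines did not overlap for 3 of the 10 members at 1 d, against 19.1% of all probe sets. At 2 w this held for 5, against 15.6%. At 4 w it held for 4 against 19.4%, at 6 w for 6 against 18.1%, and at 8 w for 6 against 21.3%. ACE and EDNRA made up 2 of each count. The median line difference of the members was largest at 2 w, at 0.28, and close to 0 at 6 w, at 0.0053.

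The age of 1 d stood apart from the later ages for 5 members, ACE, CDH5 and ERG with higher and VWF and EDNRB with lower signal at 1 d. Over all probe sets 35.0% were called in this comparison, 17.9% higher and 17.1% lower, so that the 3 higher and 2 lower of 10 members stand against a high background. The median over the members was 0.038, beside -0.053 over all probe sets. CDH5 at 1 d was 1.66-fold above its later mean (0.73 ± 0.12 SE, adjusted p = 0.00182 from limma). ERG was 1.35-fold above (0.44 ± 0.12 SE, adjusted p = 0.0183). Both pools of 1 d were above all later pools of either line for CDH5 and for ERG. Without the layer pool of 1 d CDH5 kept its call (0.58, adjusted p = 0.0390) and ERG did not (0.35, adjusted p = 0.176).

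VWF went the opposite way to CDH5. It stood at 8.77 ± 0.27, 9.23 ± 0.23, 9.45 ± 0.09, 9.40 ± 0.11 and 9.80 ± 0.19 in broilers and at 8.23 ± 0.21, 8.85 ± 0.26, 9.30 ± 0.20, 9.66 ± 0.11 and 9.92 ± 0.17 in layers from 1 d to 8 w. In layers each pool was above the one before it, and in broilers the pool of 6 w was level with that of 4 w within the SD of the arrays. At 1 d VWF was 1.93-fold below its later mean (-0.95 ± 0.15 SE, adjusted p = 0.00136 from limma), and it rose by 0.16 ± 0.02 per week (SE, adjusted p = 0.0185). Without the layer pool of 1 d the difference at 1 d was -0.70 (adjusted p = 0.0279).

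ACE and VWF were the 2 members with a called age slope, 1 down against 0.609% of all probe sets and 1 up against 0.708%, or 1.32% together. The slope of VWF missed the threshold without the layer pool of 1 d (0.13, adjusted p = 0.0859) and without the pools of 1 d (adjusted p = 0.0971), 6 w (adjusted p = 0.0663) or 8 w (adjusted p = 0.0686). The age slopes of the 2 other probe sets of VWF were 0.074 and 0.064 per week and were not called (adjusted p = 0.142 and 0.145 from limma). Both were lower at 1 d than later, at -0.63 (adjusted p = 0.00236) and -0.53 (adjusted p = 0.00480). They followed the brightest with r of 0.853 and 0.846 over the 10 pools. The slopes of the other 8 members lay between -0.064 and 0.081 per week and none passed.

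EDNRB was 1.74-fold lower at 1 d than later (-0.80 ± 0.25 SE, adjusted p = 0.0344 from limma). In broilers the pool of 1 d, at 4.81, lay within the range of the later pools, and in layers the pool of 1 d was the lowest. Its second probe set was at -0.75 (adjusted p = 0.0573). Without the layer pool of 1 d the difference of EDNRB was -0.19 (adjusted p = 0.594). Its call was lost in 5 of 17 alternatives, also without the pools of 4 w (adjusted p = 0.0589), without 1 of the array numbers and under 2 other variance priors. ERG lost its call without the pools of 2 w (0.38, adjusted p = 0.0576), and its second probe set was higher at 1 d as well, by 0.33 (adjusted p = 0.0350). EDNRA was 0.40 ± 0.14 above its later mean (SE, adjusted p = 0.0540), and it was called in 6 of 17 alternatives (adjusted p from 0.00172 to 0.347). TEK, ENG, KDR and FLT1 lay between -0.16 and 0.095 and did not pass.

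**Figure D3:**
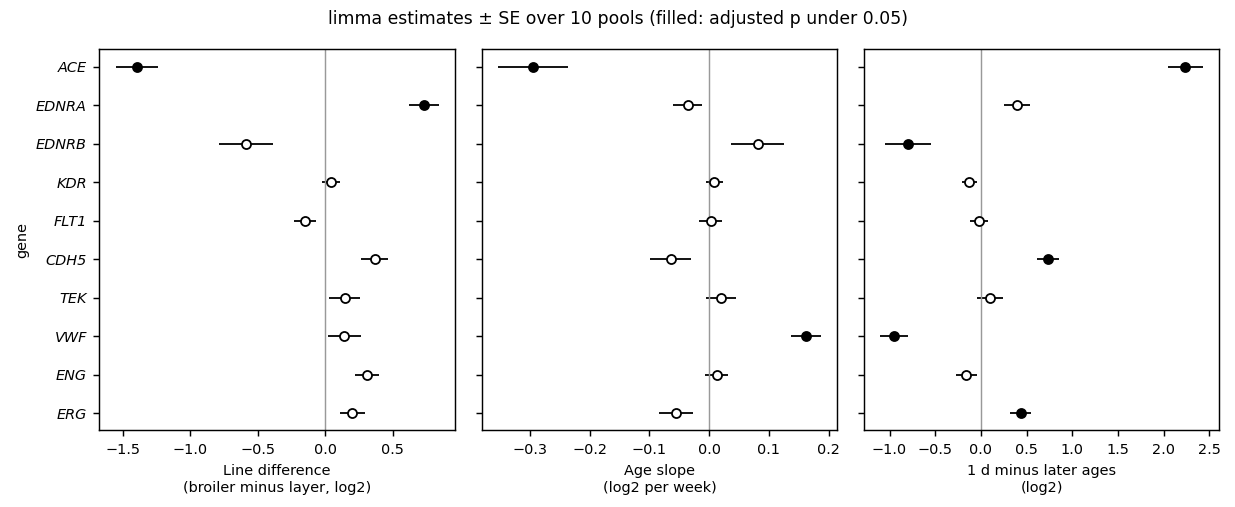
limma estimates (points) and their SE (bars) for the 10 genes (y axis) in log2 signal (x axis, per week in the middle panel): the line difference, broilers minus layers (left), the slope with age (middle) and 1 d minus the mean of the later ages (right). Filled points have an adjusted p under 0.05, which are ACE and EDNRA on the left, ACE and VWF in the middle and ACE, EDNRB, CDH5, VWF and ERG on the right.

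The receptors for vascular endothelial growth factors were dim on this array. The brightest probe set of FLT1 had a mean at the 47.7 percentile of all probe sets and that of KDR at the 55.1 percentile. The 4 other probe sets of KDR followed the brightest with r between -0.075 and 0.518. At 1 d they differed from later ages by 0.30 (adjusted p = 0.0602 from limma), 0.26 (adjusted p = 0.108), 0.13 (adjusted p = 0.562) and 0.076 (adjusted p = 0.775). The brightest was at -0.13, and none of these passed. The dimmest KDR probe set was at 2.97 in broilers and 3.67 in layers at 1 d, the latter in the pool with high MATN3, COL9A3 and ACAN. Its line difference at 1 d differed from that at later ages by -0.90 (adjusted p = 0.0796), beside -0.14 (adjusted p = 0.915) for the brightest. In the remaining KDR probe sets this term was -0.99, -0.54 and -0.24, and none was called. A probe set of FLT1 made from the mRNA of the soluble receptor differed at 1 d by 0.33 (adjusted p = 0.0594), beside -0.02 for the brightest. The probe sets of these genes thus differ, and no direction is given for either gene.

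The partners of the members in their pathways are described next, with all 10 pools. Their differences at 1 d thus include the layer pool with high MATN3, COL9A3 and ACAN and are not given without it. Beside each count of genes called at 1 d stand 17.9% of all probe sets called higher and 17.1% called lower, so that lists with a like share are near the background. In the renin-angiotensin pathway, which ACE belongs to, 7 of 10 listed genes had a probe set and none passed the test of the line difference. The largest differences there were -0.47 for AGTR1, the main angiotensin receptor, -0.37 for LNPEP, a peptidase that binds angiotensin IV, and -0.11 for AGT, the precursor of the angiotensins (adjusted p = 0.596, 0.281 and 0.472). With age AGTR1, AGTR2 and LNPEP were higher and ENPEP lower at 1 d than later.

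AGTR1 was at 7.42 in broilers and 8.57 in layers at 1 d and between 5.01 and 6.99 later. The difference between 1 d and the later ages was 1.55 ± 0.41 (SE, adjusted p = 0.0173 from limma). The second angiotensin receptor, AGTR2, was higher by 1.07 (adjusted p = 0.00165) and LNPEP by 1.17 (adjusted p = 0.00106). LNPEP was at 6.28 in broilers and 7.33 in layers at 1 d, the latter in the pool with high MATN3, COL9A3 and ACAN. At later ages it lay between 5.33 and 5.97. ENPEP, an aminopeptidase that trims angiotensin II, was lower (-0.25, adjusted p = 0.0474 from limma). Its mean of 3.99 was below the median of all probe set means, 4.14, which limits this call.

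Of the ligands and enzymes of the endothelin receptors, 5 of 7 listed genes were measured and none passed any test. At an unadjusted p under 0.05, 1 gene passed for the line difference, 1 for the age of 1 d and 0 for the age slope (limma), beside 14.3%, 45.8% and 22.6% of all probe sets. EDN1, the main ligand, lay between 4.21 and 4.71 over the 10 pools, with a line difference of 0.0097, and ECE1, the enzyme that cuts its precursor, lay between 5.80 and 6.10, with a line difference of 0.086. The differences of EDNRA and EDNRB were thus set beside a line difference of at most 0.17, for EDN2, among the other genes of the pathway. Most of these genes were dim, beside a median of all probe set means of 4.14. EDN2 and ECEL1 had means of 3.37 and 3.69, below it, and EDN1 and EDNRB2 of 4.42 and 4.26, close to it. Small differences in genes this dim do not show that their RNA is alike in the lines. EDNRB2, a further endothelin B receptor of birds, was at 0.11 (adjusted p = 0.481).

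**Figure D4:**
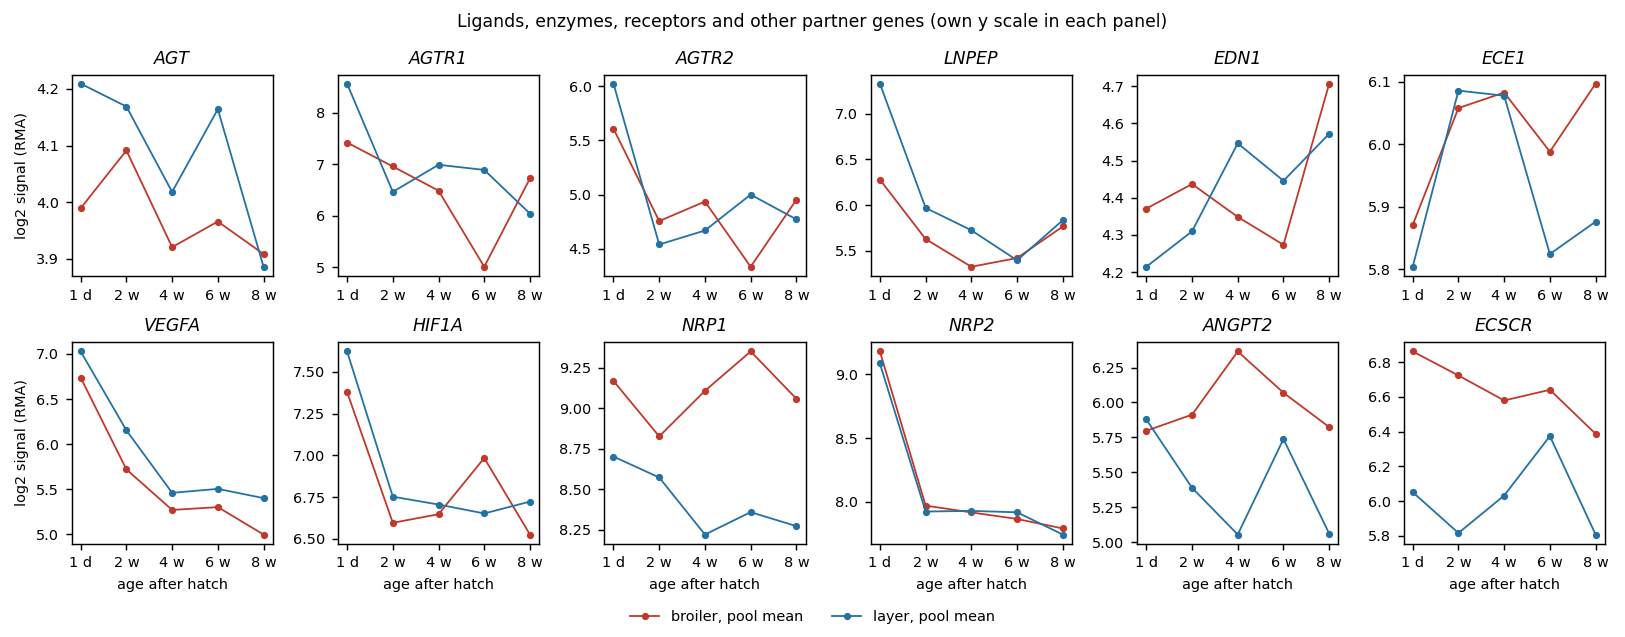
Mean log2 signal of each pool (y axis, own scale in each panel) against age after hatch (x axis) in broilers (red) and layers (blue) for partner genes of the renin-angiotensin, endothelin, VEGF and angiopoietin pathways and for ECSCR. NRP1 and ECSCR lie higher in broilers at all 5 ages, and VEGFA and NRP2 are highest at 1 d in both lines.

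Among 10 measured VEGF ligands, co-receptors and hypoxia factors NRP1, the neuropilin that binds VEGF beside KDR, was higher in broilers (0.68 ± 0.12 SE, adjusted p = 0.0304 from limma). It was the only gene of this list called for the line difference, beside 1.35% of all probe sets. Its broiler pools lay between 8.83 and 9.35 and its layer pools between 8.22 and 8.70. VEGFA, the main ligand of KDR and FLT1, was 2.65-fold higher at 1 d than later (1.41 ± 0.10 SE, adjusted p = 1.19e-05) and fell by 0.20 per week (adjusted p = 0.0295). The broiler pool was at 6.74 at 1 d and 5.00 at 8 w, the layer pool at 7.03 and 5.40.

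NRP2 was 2.38-fold higher at 1 d (adjusted p = 2.19e-05), HIF1A, the hypoxia-induced transcription factor, was 1.74-fold higher (adjusted p = 0.00134) and FLT4, the VEGF receptor of lymphatic endothelium, was 1.41-fold higher (adjusted p = 0.0180). VEGFD, a ligand of FLT4 in mammals, was 1.80-fold lower at 1 d (adjusted p = 0.0249). Of the 10 genes of this list 4 were thus higher and 1 was lower at 1 d, beside 17.9% and 17.1% of all probe sets.

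Among the 6 measured genes of the angiopoietin pathway, to which TEK belongs, none passed for the line difference. The largest was that of ANGPT2, a ligand of TEK, at 0.57 ± 0.17 (SE, adjusted p = 0.151), with broiler pools between 5.80 and 6.37 and layer pools between 5.05 and 5.88. ANGPT4 was higher at 1 d by 0.58 (adjusted p = 0.00386). PTPRB, a phosphatase that acts on TEK, was at -0.35 (adjusted p = 0.200) for the line difference.

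Of 16 measured genes of TGF-beta and BMP signalling, in which ENG acts, none passed for the line difference. At 1 d 5 were higher and 1 was lower, beside 17.9% and 17.1% of all probe sets, so that the calls together were near the background of 35.0%. The type III receptor gene TGFBR3, a co-receptor related to ENG, was 3.69-fold higher at 1 d (1.88 ± 0.18 SE, adjusted p = 6.90e-05 from limma), and TGFBR1 was 1.90-fold higher (adjusted p = 0.00114). SMAD5, ID2 and TGFB2 were higher by 0.54 to 0.63, and the ligand gene BMP6 was lower (-0.51, adjusted p = 0.0339 from limma). BMP6 was dim, with a mean of 4.02 beside a median of all probe set means of 4.14. ENG itself was at -0.16 (adjusted p = 0.302). Of 7 genes of the Notch pathway in vessels NOTCH2 was higher at 1 d (1.24, adjusted p = 0.000212) and none passed for the line difference.

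Other endothelial genes that are no members numbered 21 measured of 28 listed. In 17 of them the broiler mean was the higher, beside 51.8% of all probe sets. The median line difference was 0.23 beside 0.0039 over all probe sets. An unadjusted p under 0.05 from limma was reached by 9, beside 14.3% of all probe sets. Among these PTPRB was lower in broilers (-0.35). PTPRB and TIE1 are also in the angiopoietin list. ECSCR, a surface protein of endothelial cells, was called, with a line difference of 0.62 ± 0.11 (SE, adjusted p = 0.0288 from limma), beside 0.630% of all probe sets called higher. Its pools lay between 6.39 and 6.86 in broilers and between 5.81 and 6.38 in layers. At 1 d CAV1, CD34, MYCT1 and ADGRL4 were called higher than later, by 0.40 to 0.81, and none was called lower. These 4 of 21 stand beside 17.9% of all probe sets called higher and 17.1% called lower, so the higher share is near the background. The summed linear signal of these 21 genes lay between 2610.4 and 3061 in the broiler pools and between 2034 and 2719.9 in the layer pools.

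Of 19 endothelial transcription factors none was called for the line difference, and 10 were on the higher side in broilers, beside 51.8% of all probe sets. The flow-responsive factor KLF2 was 1.87-fold higher at 1 d (adjusted p = 0.00974), SOX17 1.74-fold (adjusted p = 0.00385), MEF2C 1.70-fold (adjusted p = 0.00573) and ETS2 1.35-fold (adjusted p = 0.00773). GATA2 and TAL1 were lower at 1 d, by -0.36 (adjusted p = 0.00783) and -0.27 (adjusted p = 0.0447 from limma). These calls stand beside 17.9% of all probe sets called higher and 17.1% called lower at 1 d. GATA2 was dim, with a mean of 3.06 beside a median of all probe set means of 4.14, which limits its call. MEF2C also acts in muscle fibres, and TAL1 and GATA2 in blood cells, which whole muscle holds too.

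Markers of other cells that whole muscle holds are given for both comparisons. Beside each count called at 1 d stand 17.9% of all probe sets called higher and 17.1% called lower. Of 11 mural cell markers, listed for the pericytes and smooth muscle around vessels, none passed for the line difference. Their summed signal lay between 2115 and 2509 in broilers and between 1850.3 and 2440.2 in layers. The list also holds PDGFB, a growth factor gene, so neither the count nor the sum is of mural cells alone. At 1 d MYH11, TAGLN and KCNJ8 were higher by 0.31 to 1.11 and RGS5 and ABCC9 lower (-0.50 and -0.57). Of 12 fibroblast markers none passed for the line difference and 10 were higher at 1 d, with summed signals of 36535 and 35995 at 1 d. The lowest such sums were 19234 in broilers and 20687 in layers.

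Of 10 macrophage and leukocyte markers none passed for the line difference and 8 were lower at 1 d, led by CD74 (-2.93, adjusted p = 1.13e-05). CSF1R and LY86 were on the higher side at 1 d (0.095 and 0.61, adjusted p = 0.738 and 0.0874 from limma) and not called. CD4, among the lower ones, was dim, with a mean of 2.89. The summed signal of the list at 1 d was 1144 in broilers and 1429 in layers, and the medians over the ages were 4586 and 4801. This linear sum rests mostly on CD74, with a mean of 11.03 beside 8.03 for CSF1R. Over all probe sets 17.9% were called higher and 17.1% lower at 1 d, so that lists with a like share are near the background. Of 6 nerve and Schwann cell markers 4 were higher at 1 d. Of 7 blood cell markers 2 were higher and 1 lower, and of 4 thrombocyte markers 1 was lower. Of 7 adipocyte markers 2 were higher and 2 lower, of 9 cartilage and tendon markers 2 were higher (TNMD in both lines, COL9A3 mainly in the layer pool), and of 7 muscle fibre markers 4 were lower. For the line difference, MYLPF of the 7 muscle fibre markers passed, higher by 0.85 (adjusted p = 0.00434 from limma), beside 0.630% of all probe sets called higher. None of the other marker lists in this paragraph held a call for it. The part of these cells in the differences of the 10 members was not tested.

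**Figure D5:**
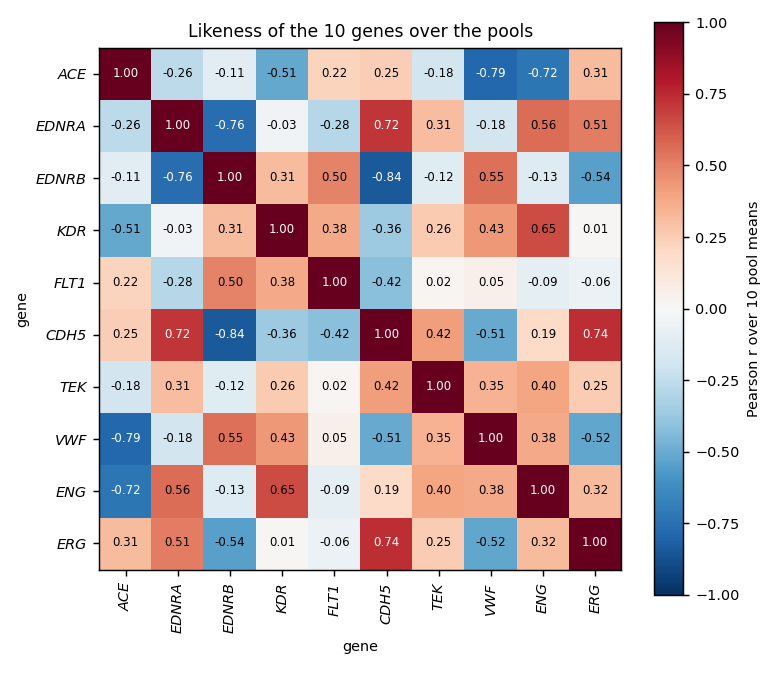
Pearson r between the 10 genes (both axes) over the 10 pool means, with the value printed in each cell and shown by colour. CDH5 and ERG lie at 0.74, and EDNRB lies at -0.84 to CDH5 and -0.76 to EDNRA.

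The members did not move as 1 group over the pools. These correlations describe 10 pool means that share line, age and arrays, and no p is given. CDH5 went with ERG (Pearson r 0.739, Spearman rho 0.806) and with EDNRA (r 0.717, rho 0.661). EDNRB ran against CDH5 (r -0.840, rho -0.867) and against EDNRA (r -0.763, rho -0.673). Without the pools of 1 d these were 0.551, 0.734, -0.785 and -0.853 over 8 pools. ACE and VWF were at -0.788 over the 10 pools and at -0.425 over the 8. Other pairs moved further: ACE and CDH5 from 0.247 to -0.800, ACE and EDNRB from -0.111 to 0.753, ACE and EDNRA from -0.262 to -0.871, CDH5 and VWF from -0.507 to 0.205, and TEK and VWF from 0.346 to 0.815.

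By Pearson r over the 10 pools, the genes most like ACE were ETV5, an ETS family transcription factor (0.975), SPPL3 (0.966) and LVRN (0.964). Those most like EDNRA were CERS4, ATL1 and GLB1L2 (0.944 to 0.961), and those most like EDNRB were TTN, which encodes the giant muscle protein titin, SON and PHYH (0.946 to 0.969). For CDH5 they were PARP4, TM7SF3 and PXDN (0.960 to 0.962), and for VWF ALDH2, RAC2 and KPNB1 (0.952 to 0.963). For TEK they were IRAG1, C2H8ORF76 and FLI1 (0.877 to 0.912), of which FLI1 is an endothelial and blood transcription factor. ENG was closest to MECOM, LAPTM4A and FGR (0.912 to 0.916) and ERG to LEUTX, TSEN54 and NUMB (0.897 to 0.924). KDR was closest to GFER, CHURC1 and EBAG9 (0.886 to 0.905) and FLT1 to OCRL, DNAJC18 and PLEKHA1 (0.902 to 0.922). These are the 3 highest for each member among all named probe sets above the median mean, so that high values follow from the choice.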

How the data were processed

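RMA was run by the authors on the 30 arrays, and the deposited values are log2 signals per probe set. MAS5 present calls were made by the authors too and were not used. For neither tool is a version given in the sources used here. Apart from leaving out 96 control probe sets the table was taken unchanged. Means over the 3 arrays of each pool entered the fits, which were made in limma 3.58.1 (R 4.3.3) over all 38439 probe sets with an intensity trend in eBayes, two-sided, with Benjamini-Hochberg adjustment over all probe sets. The fits were line with age as a factor, the slope per week with line, 1 d against the mean of later ages, the difference of the slopes, and a term for the broiler pool at 1 d. The scripts were tested on simulated data. With 1 pool for each line and age there are no replicate pools, so the p-values do not measure the spread between pools of a condition. For the line difference and for 1 d against later ages, the spread used is the variation of the line gap over the ages. For the slopes it also holds departures from a straight line.

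All 21 probe sets carried the same symbol in a RefSeq table of assembly GRCg7b, used for names only. Named genes were the 10 members, genes of the lists called in a test or else the 3 with the largest size in it, and the 3 most like each member among probe sets above the median mean. Members and lists were chosen with earlier results of these data known. Alternatives covered the unit of replication, normalization, the variance prior, a filter on dim probe sets, the age term and time scale, the probe set, and arrays or ages left out. The fits without the layer pool of 1 d were added after seeing the data.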

Additional observations from a re-analysis of the deposited data

Results flagged for a closer look

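The line difference of ENG, the endothelial co-receptor for TGF-beta and BMP ligands, was 0.63 on the log2 scale at 2 w and between 0.20 and 0.26 at the other 4 ages, which set 2 w apart from the rest by Dixon's criterion for 5 values. Chance alone sets about 1 in 20 such groups apart, and 10 genes were looked at. At 2 w the broiler pool was at 6.37 ± 0.27 and the layer pool at 5.74 ± 0.32 (SD of 3 arrays, 1 pool per line). At the same age the median line difference of the 10 members was 0.28 and that of 21 other endothelial genes 0.38, the highest of the 5 ages for both.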

How the results depend on the processing

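The counts of calls moved with the unit of replication and with the age term. The line difference was called for 520 probe sets over pool means, and for 3404 over the 30 arrays with the pool as a random block, 3496 with a replicate block added and 3996 with arrays taken as independent. In each of these 3 fits 5 members were called, with EDNRB, CDH5 and ENG beside ACE and EDNRA. With a slope for age in place of the factor 35 probe sets were called, with no age term 17, and 0 members in both, where ACE and EDNRA kept the same estimates. The age slope was called for 506 probe sets and in the array fits, in the same order, for 6328, 6300 and 9646. The line by age slope was called for 0 and then 5, 3 and 34 (at an unadjusted p under 0.05 limma over pools gave 753), and the line difference at 1 d against later ages for 113 and then 920, 949 and 1005. The last count was 46 without the intensity trend and 8 among probe sets above the median mean, where FLT1 was not tested. The cause of these shifts was not tested.

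The age slope on log2 of age in days was called for 10703 probe sets and 4 members. Of the members 5 were called with independent arrays, and 1 without the trend, with robust eBayes or with the mean of all probe sets of a gene. With that mean the age slope was -0.018 for KDR and -0.0054 for FLT1, and the difference at 1 d was 0.13 for KDR and 0.046 for FLT1, all against the sign of the brightest probe set. After quantile normalization was repeated TEK differed at 1 d by -0.042. None of these 5 values passed. Of the 30 genes most like a member 3 were among the 3 highest by Spearman rho.

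Leaving out 1 age, 1 array number or the layer pool of 1 d (the last chosen after seeing the data) gave between 128 and 760 calls for the line difference, with 1 to 3 members, between 54 and 3955 for the age slope, with 0 to 3 members, between 7683 and 12928 for 1 d against later ages (13435 over all pools), with 3 to 7 members, and between 57 and 105 at the lowest and highest for the line difference at 1 d. The lowest counts for the age slope and for 1 d came without the layer pool of 1 d, where ACE, CDH5 and VWF were the members called at 1 d. The slope lay between -0.053 and 0.0066 for EDNRA, -0.0078 and 0.014 for KDR, -0.020 and 0.015 for FLT1, -0.095 and 0.018 for CDH5, -0.0073 and 0.057 for TEK and -0.0062 and 0.038 for ENG. The difference at 1 d lay between -0.19 and 0.13 for FLT1, -0.0025 and 0.16 for TEK and -0.38 and 0.042 for ENG. Without array number 3 ENG was called (adjusted p = 0.0463) and the slope of ACE was not (adjusted p = 0.0631). Calls at 1 d were lost by EDNRB without number 2 (adjusted p = 0.0515), without the trend (adjusted p = 0.0548) and with robust eBayes (adjusted p = 0.0647), and by ERG without number 1 (adjusted p = 0.0599). EDNRA was called at 1 d in the 3 array fits, without the trend (adjusted p = 0.0479), among probe sets above the median mean (adjusted p = 0.0473) and without number 3 (adjusted p = 0.0439). The other alternatives left the direction and the call in 172 values for the line difference, 168 for the age slope and 146 for 1 d.

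Arrays of the same number were not paired by their labels. Their deviations from the pool means had a median correlation of 0.142 in 135 pairs (-0.386 to 0.527), and 23 of 30 arrays were closest to their own number. For other numbers the median was -0.069. The deviations within a pool cancel out, so this value largely follows from the first and is no separate comparison. Signal near the array median limits KDR and FLT1, and 1 pool for each line and age limits every single age.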
